A study of Mus musculus with 13 samples.

Results

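Perivascular adipose tissue (PVAT), the fat that surrounds blood vessels, was compared between mice given splenocytes from Nlrp3 KO donors with type 2 diabetes (T2DM) and mice given splenocytes from wild-type donors. The recipients of diabetic knockout cells are called NTS-R and the recipients of wild-type cells WTS-R, as in the sample titles. Each group had 3 libraries, 6 of the 13 in the series, and 17270 of the 34013 genes in the table passed a filter on low counts and were tested. The comparison asks which differences from the wild-type control remained when the transferred diabetic cells lacked Nlrp3. Donor diabetes and donor Nlrp3 loss both separate NTS-R from WTS-R, so their effects cannot be told apart here. The genotype label reads Nlrp3 KO for NTS-R and WT for WTS-R and leaves unsaid if donors or recipients are meant. All samples share the C57BL/6 background. The sources used here do not give how diabetes was brought about, the number of cells transferred, the time after transfer, age or sex. Values from TS-R, 4 libraries of recipients of T2DM splenocytes labelled WT, are set beside those of NTS-R. Both groups were compared with the same WTS-R libraries, so the differences of TS-R and NTS-R from WTS-R are not independent of each other. For single genes, values are also given from NS-R, the recipients of Nlrp3 KO splenocytes from donors without T2DM.

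PVAT around the large arteries of the mouse is brown-like fat: its adipocytes burn lipid through the uncoupling protein Ucp1, and immune cells, nerve fibres and cells of the vessel wall lie among them. Splenocytes are mainly B cells, T cells and myeloid cells. Nlrp3 is the sensor of an inflammasome, a protein complex that with the adaptor Pycard activates caspase-1, which in turn matures IL-1 beta and IL-18. B cells that become plasma cells secrete antibody, and those at mucosal surfaces mostly make IgA joined by the J chain.

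The libraries held between 14216706 and 17707840 counts. Levels are given as CPM, a gene's counts scaled to the total of its library, and fold changes as the fitted log2 value of edgeR with its standard error (SE). Fat cell markers were high in all 6 libraries, with Fabp4 between 6724 and 9507 CPM. The lymph node gene Glycam1 was at or under 0.116 CPM and the airway gene Scgb1a1 at or under 0.240 CPM, against a 3-count floor of 0.169 to 0.211 CPM in these libraries. A list of 10 genes of lymph node vessels and lymphoid stroma had mean log2(CPM + 0.5) levels between 0.305 and 1.11 in them. In TS-R replicates 1, 2, 3 and 4 these levels were 0.881, 4.32, 5.995 and 2.98. The part of lymph node tissue in the TS-R values given below was not tested. The Y-linked gene Ddx3y was between 47.8 and 123 CPM in all 6. The share of counts from mitochondrially encoded genes ran from 21.1% to 27.1% in WTS-R and from 23.5% to 33.4% in NTS-R. The labels do not tie each library to its own animal, and p-values therefore reflect only how far these samples spread, which may be technical.

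No gene passed an FDR of 0.05 in the edgeR quasi-likelihood fit of all 13 libraries (0 higher and 0 lower of 17270, 0.0% each way; the lowest FDR was 0.995). An unadjusted p under 0.05 was reached by 303 genes that were higher in NTS-R (1.75%) and by 154 that were lower (0.892%). All 3 NTS-R libraries lay above all 3 WTS-R libraries for 1182 genes (6.84%) and below them for 1007 genes (5.83%). The fit of the 6 libraries alone, which leaves the uneven TS-R and NS-R libraries out of the shared spread, called 3 genes higher (0.0194% of 15497) and 0 lower (0.0%). All 3 called genes encode parts of the antibody kappa light chain. At an unadjusted p under 0.05 this smaller fit gave 641 genes higher (4.14%) and 401 lower (2.59%). DESeq2 on all 13 libraries called 11 genes higher and 2 lower, and voomWithQualityWeights called 0 and 2. Among these calls were Jchain, Dbp, Ripk4 and antibody genes on the higher side and Nr4a1 and Fam222a on the lower side.

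The 3 NTS-R libraries did not depart from WTS-R in the same way. NTS-R replicate 1 was above the highest WTS-R library for 5310 genes and below the lowest for 2554. NTS-R replicate 3 showed the opposite balance, with 4802 genes above and 6512 below, and replicate 2 had 3090 above and 4966 below. Both other NTS-R libraries, but not replicate 1, were below all of WTS-R for 2128 genes, and the corresponding numbers were 518 for replicate 2 and 369 for replicate 3. Both others were above all of WTS-R for 630 genes without replicate 1, 1303 without replicate 2 and 556 without replicate 3. Replicate 1 was thus most often the exception among genes low in the other libraries, and replicate 2 among genes high in them.

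**Figure D1:**
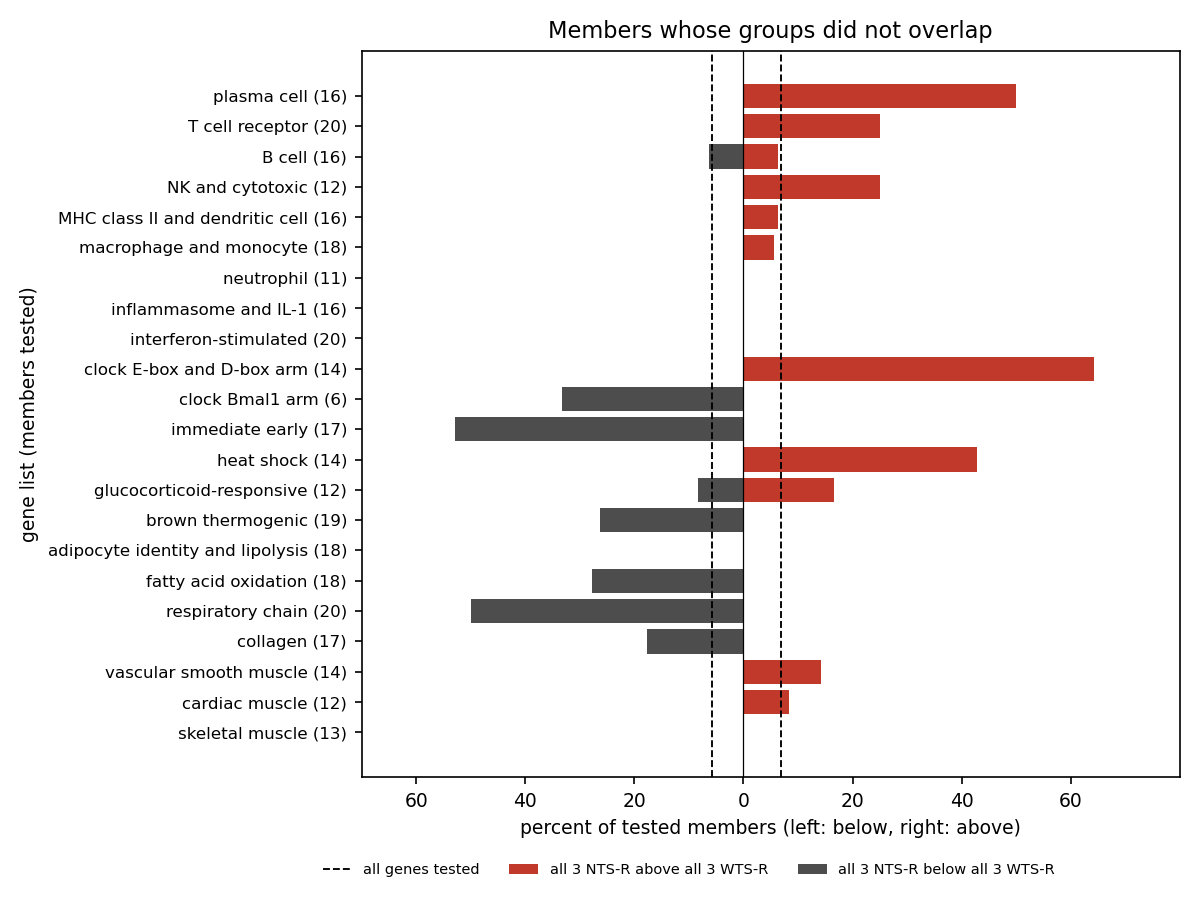
Percent of tested members of 22 gene lists whose 3 NTS-R libraries all lay above (right, red) or all lay below (left, grey) the 3 WTS-R libraries, by CPM; the number of tested members stands in brackets, and the dashed lines give the share over all 17270 genes (6.84% above, 5.83% below). The clock E-box and D-box arm, the plasma cell list and the heat shock list reach farthest to the right, and the immediate early and respiratory chain lists farthest to the left.

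Transcripts of Nlrp3 were scarce in both groups, with no lower level in NTS-R. Nlrp3 levels were 0.601, 0.226 and 0.693 CPM in WTS-R replicates 1, 2 and 3 and at 1.22, 0.483 and 0.352 CPM in NTS-R, and the groups overlapped. The fitted log2 difference was 0.45 (SE 0.73). Counts of whole tissue do not tell donor transcripts from recipient ones, so Nlrp3 does not check the genotype label. In TS-R the gene was at 0.537, 1.35, 3.55 and 1.16 CPM.

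The inflammasome and IL-1 genes showed no common difference between NTS-R and WTS-R. Of 16 tested members (18 in the list), 0 passed an unadjusted p of 0.05 (1.75% higher and 0.892% lower over all genes), 0 had groups that did not overlap (6.84% and 5.83%), and the median log2 difference was 0.04; over all genes tested it was -0.003. Il1b, the cytokine that the complex matures, was at 0.481, 0.508 and 0.882 CPM in the WTS-R libraries and 0.986, 0.552 and 0.563 CPM in NTS-R. The log2 difference of Il1b was 0.19 (SE 0.52), with overlapping groups, and its TS-R libraries had 2.11, 4.53, 8.66 and 3.08 CPM. Casp1, the protease, gave 0.39 (SE 0.34) and the cytokine Il18 -0.57 (SE 0.43). The median of the same 16 genes in TS-R against WTS-R was 1.03.

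Antibody transcripts were the clearest difference between NTS-R and WTS-R. Igkc, the constant part of the kappa light chain, was at 11.3, 9.77 and 14.1 CPM in the WTS-R libraries and 150, 378 and 420 CPM in NTS-R. All NTS-R libraries stood more than an order of magnitude above all WTS-R libraries. The log2 fold change of Igkc was 4.81 (SE 1.67) in the 13-library fit and 4.82 (SE 0.44) in the 6-library fit, where it passed the test (edgeR FDR 0.0279). Counts summed over libraries were 586 in WTS-R and 14035 in NTS-R, a ratio of 26.2 (95% interval 24.1 to 28.5, counting error only). The kappa variable genes Igkv3-4 and Igkv6-15, which encode alternative antigen-binding segments, also passed in the 6-library fit (edgeR FDR 0.00239 and 0.0279). Igkv3-4 had 3 counts in all of WTS-R and 415 in NTS-R, a ratio of 151 (95% interval 51.4 to 736), and Igkv6-15 had 3 and 163, a ratio of 59.4 (19.96 to 291). Related antibody genes can share reads, so the values of single variable genes are uncertain.

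Jchain, which links IgA and IgM units, was at 2.52, 1.41 and 2.65 CPM in the WTS-R libraries and 34.4, 99.1 and 161 CPM in NTS-R. The groups were far apart, with a log2 fold change of 5.55 (SE 1.52), a 6-library edgeR FDR of 0.0551 and a DESeq2 adjusted p of 0.0267. Its TS-R levels were 129, 510, 2192 and 595 CPM. NTS-R thus lay between WTS-R and TS-R for Jchain, apart from replicate 3 of NTS-R, which exceeded the lowest TS-R library. TS-R replicates 2, 3 and 4 also had the higher levels of lymph node genes, whose part in the Jchain values was not tested. In the NS-R libraries of the series Jchain was at 4.81, 5.53 and 179 CPM, with replicate 3 above every NTS-R library.

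Antibody classes differed between the NTS-R libraries. Igha, the IgA heavy chain, was at 0.661, 3.16 and 8.45 CPM in the WTS-R libraries and 4.52, 306 and 325 CPM in NTS-R, so NTS-R replicate 1 overlapped with WTS-R. Ighg2b, an IgG heavy chain, was at 0, 1.13 and 0 CPM in the WTS-R libraries and 63.9, 39.1 and 87.0 CPM in NTS-R, with high levels in all 3 libraries. For Ighg2c the levels were 0.120, 0.339 and 0.504 CPM in the WTS-R libraries and 3.94, 124 and 89.5 CPM in NTS-R. Ighm, the IgM heavy chain, was at 27.4, 16.7 and 32.5 CPM in the WTS-R libraries and 184, 26.6 and 66.9 CPM in NTS-R. NTS-R replicate 1 was therefore the lowest of its group for IgA and the highest for IgM. The log2 fold changes were 5.80 (SE 1.99) for Igha, 7.33 (SE 2.32) for Ighg2b, 7.87 (SE 2.70) for Ighg2c and 1.84 (SE 0.86) for Ighm. The value of Ighg2b rests on WTS-R replicate 2, the one control library with counts, and was 13.47 without it.

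The plasma cell list showed the same direction, but it holds Jchain and 1 of the kappa genes called in the 6-library fit. Its counts are therefore not separate from the values given above. Of 16 tested members, 8 were higher in all 3 NTS-R libraries (6.84% over all genes), 6 had an unadjusted p under 0.05 (1.75%), and 0 were lower by either measure. The median log2 difference was 1.24, beside 3.83 for the same genes in TS-R against WTS-R. Prdm1, the transcription factor that drives plasma cell differentiation, was at 0.721, 0.904 and 0.882 CPM in the WTS-R libraries and 2.61, 1.66 and 2.60 CPM in NTS-R (log2 1.46, SE 0.54). Pou2af1, a coactivator of antibody gene transcription, was at 0.814 ± 0.108 CPM in the WTS-R libraries and 3.11 ± 1.43 CPM in NTS-R (SD, n = 3), without overlap. The lambda constant genes Iglc1 and Iglc2 gave log2 fold changes of 3.89 (SE 1.63) and 2.81 (SE 1.08). Xbp1 and Sdc1, which other cells of the tissue express as well, gave 0.16 (SE 0.35) and 0.09 (SE 0.38). In bulk tissue, more plasma cells and more antibody RNA per cell cannot be told apart.

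**Figure D2:**
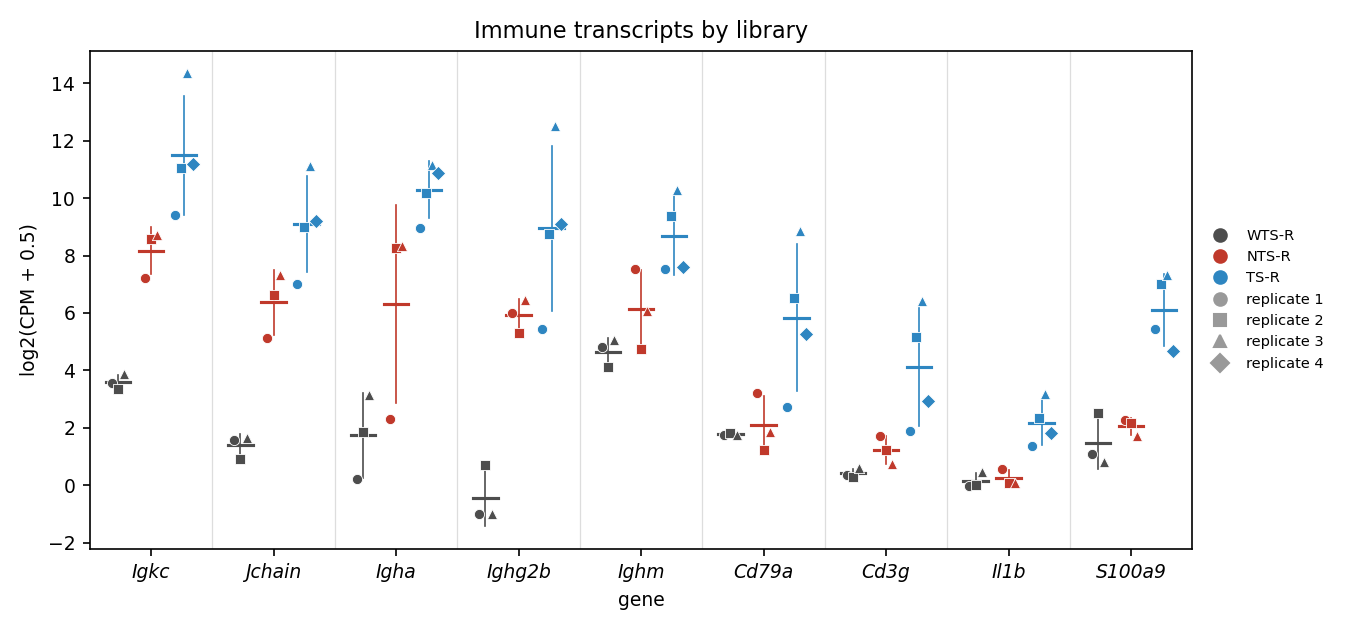
Level of 9 immune genes as log2(CPM + 0.5) in each library of WTS-R (grey, 3), NTS-R (red, 3) and TS-R (blue, 4); symbols give the replicate number, horizontal lines the group mean and vertical lines the SD. Igkc, Jchain and Ighg2b lie above WTS-R in all 3 NTS-R libraries, Igha in replicates 2 and 3 alone, and Cd79a, Il1b and S100a9 overlap with WTS-R.

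T cell genes were slightly higher in NTS-R, at low absolute levels. Of 20 tested members of the T cell receptor list, 19 had a positive log2 difference with a median of 0.77, 5 lay above WTS-R in all 3 libraries (6.84% over all genes), and 0 passed an unadjusted p of 0.05 in the 13-library fit. In the 6-library fit 4 of 18 were higher at that p (4.14% over all genes). Cd3g, a chain of the receptor complex, was at 0.781, 0.734 and 1.01 CPM in the WTS-R libraries and 2.78, 1.86 and 1.20 CPM in NTS-R, a small shift without overlap. Its log2 difference was 1.22 (SE 0.94), and its TS-R levels were 3.26, 35.5, 85.7 and 7.20 CPM. Cd3e, another chain, gave 1.27 (SE 1.14) and the CD8 alpha chain Cd8a 1.04 (SE 1.10). The median of the T cell list in TS-R against WTS-R was 4.86. NTS-R replicate 1 had the highest mean T cell list level of the 6 libraries, and without that library the median was 0.14.

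B cell genes other than those of antibody secretion differed mainly in NTS-R replicate 1. The list had 16 tested members with a median of 0.85, 1 member above and 1 below in all libraries (6.84% and 5.83% over all genes), and 0 at an unadjusted p under 0.05. In the 6-library fit 3 of 12 were higher at that p (4.14% over all genes). Cd79a, the signalling chain of the B cell receptor, was at 2.88, 3.05 and 2.90 CPM in the WTS-R libraries and 8.70, 1.86 and 3.17 CPM in NTS-R. NTS-R replicate 1 alone stood clear of WTS-R, and without it the list median was -0.52 and the log2 difference of Cd79a was -0.15. In TS-R Cd79a was at 6.17, 91.7, 459 and 37.8 CPM.

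The other leukocyte lists had smaller medians than the T and B cell lists. Of 12 natural killer and cytotoxic genes tested, 3 lay above WTS-R in all libraries (6.84% over all genes), among them Klrk1, an activating receptor (log2 0.85, SE 0.59), and the chemokine Ccl5 (0.81, SE 0.87), and the list median was 0.56. With 1 replicate left out of the 13-library fit this median ran from 0.45 to 0.80. The 6-library fit tested only 7 of the 12 genes, and without NTS-R replicate 1 the median there was -0.07. Of 16 genes of antigen presentation, 16 had a positive difference with a median of 0.30, or -0.09 without NTS-R replicate 1. The member above WTS-R in all libraries, 1 of 16 and so near the share over all genes, was Ciita, the master regulator of MHC class II. Ciita was at 3.18, 2.20 and 3.72 CPM in the WTS-R libraries and 14.5, 4.14 and 6.12 CPM in NTS-R (log2 1.44, SE 0.87). Neutrophil genes had a median of -0.03 over 11 tested members, with 0 outside the WTS-R range in all libraries (6.84% above and 5.83% below over all genes), and the alarmin subunit S100a9 gave 0.44 (SE 0.68). With 1 library left out this median ran from -0.44 (without NTS-R replicate 1) to 1.40 (without WTS-R replicate 2). The medians of these lists in TS-R against WTS-R were 2.71, 2.03 and 4.32. Of 18 macrophage and monocyte genes 6 were positive, with a median of -0.16, and 1, the clearance receptor Mertk, was higher in all libraries, again near the share over all genes. Mertk was at 16.5, 15.3 and 8.07 CPM in the WTS-R libraries and 26.4, 17.3 and 29.9 CPM in NTS-R (log2 0.89, SE 0.31).

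Genes of the immediate early response were lower in NTS-R. These genes switch on within minutes of a stimulus such as adrenergic signalling, calcium or tissue handling, and most encode transcription factors. Of 17 tested members (18 in the list), 9 were below WTS-R in all 3 libraries (5.83% over all genes), 6 had an unadjusted p under 0.05 (0.892%), and 0 were higher by either measure. The median log2 difference was -0.62, beside 0.16 in TS-R against WTS-R. Nr4a1, an orphan nuclear receptor, was at 252, 152 and 365 CPM in the WTS-R libraries and 54.4, 44.9 and 63.2 CPM in NTS-R. The highest NTS-R library was well below the lowest WTS-R library. Its log2 difference was -2.20 (SE 0.50), and it passed with voomWithQualityWeights on 13 libraries (adjusted p 0.0181) and with DESeq2 (adjusted p 0.0118) but not in the 6-library edgeR fit (FDR 0.103). TS-R levels of Nr4a1 were 182, 442, 112 and 277 CPM, overlapping with WTS-R.

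Relatives of Nr4a1 and of the AP-1 factors showed the same direction. Nr4a2 was at 19.9, 23.1 and 13.6 CPM in the WTS-R libraries and 6.38, 6.14 and 9.14 CPM in NTS-R (log2 -1.37, SE 0.54). Egr3, a zinc finger factor, was at 5.47, 3.28 and 10.3 CPM in the WTS-R libraries and 0.812, 2.14 and 1.90 CPM in NTS-R (log2 -1.92, SE 0.55), while TS-R had 16.6, 39.4, 29.3 and 10.9 CPM. Egr3 thus lay below WTS-R in NTS-R, and the TS-R libraries lay above it. Fosb gave -1.75 (SE 0.77), the stress factor Atf3 -1.12 (SE 0.49) and Jund -0.75 (SE 0.29), each without overlap. Egr1 and Fos, the best known members, overlapped between the groups, with log2 differences of -0.44 (SE 0.64) and -0.32 (SE 0.83).

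Sik1 and Dusp10, which are not in the immediate early list, were also lower in all 3 NTS-R libraries. Sik1, a kinase and a target of cAMP signalling, was at 71.5, 84.3 and 105 CPM in the WTS-R libraries and 39.1, 34.2 and 51.9 CPM in NTS-R (log2 -1.03, SE 0.29). Dusp10, a phosphatase of stress kinases, was at 105 ± 21.6 CPM in the WTS-R libraries and 45.2 ± 6.76 CPM in NTS-R (SD, n = 3), with a log2 difference of -1.18 (SE 0.35).

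**Figure D3:**
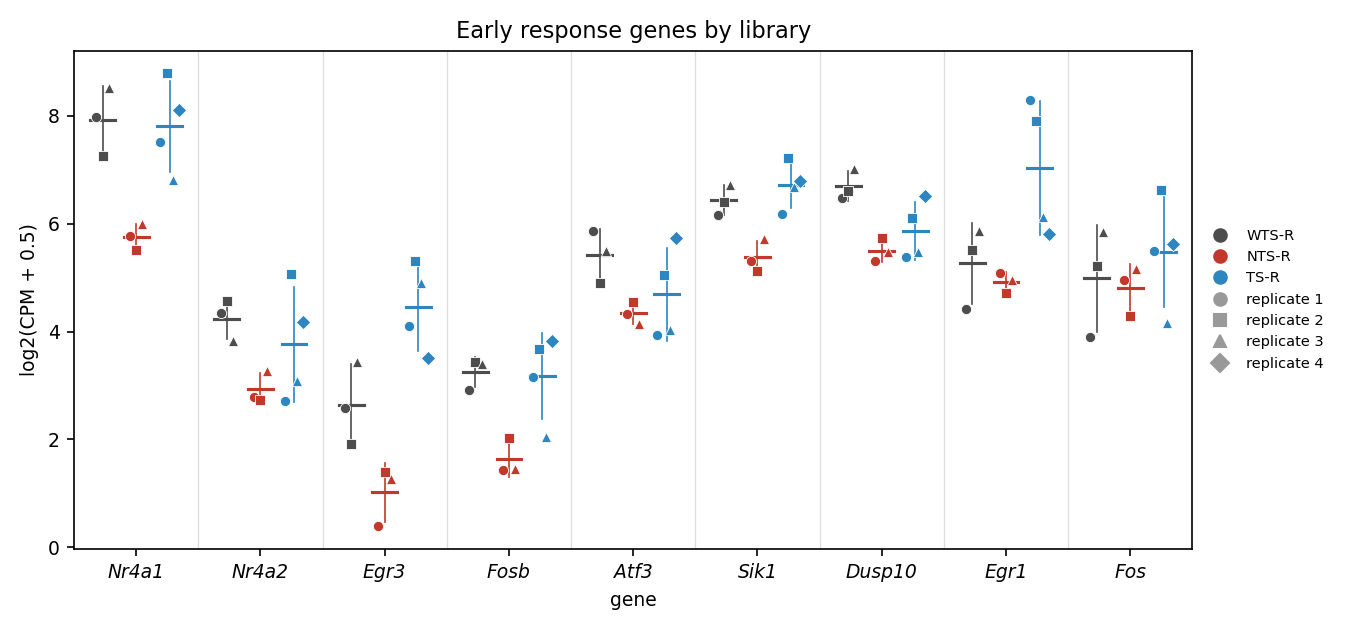
Level of 9 early response genes as log2(CPM + 0.5) per library, with groups, symbols, means and SD as in the plot of immune transcripts. The 3 NTS-R libraries lie below the 3 WTS-R libraries for Nr4a1, Nr4a2, Egr3, Fosb, Atf3, Sik1 and Dusp10 and overlap with them for Egr1 and Fos.

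Most circadian clock genes of the E-box and D-box arm were higher in NTS-R, and some of the Bmal1 arm were lower. In this oscillator Arntl (BMAL1) with Clock or Npas2 activates genes through E-box elements, among them Per and Cry genes, the nuclear receptors Nr1d1 and Nr1d2 and the PAR bZIP factors Dbp, Tef and Hlf, which in turn act on D-box elements. Nr1d1 and Nr1d2 repress Arntl, so that the arms peak at opposite times of day. Of 14 members of the E-box and D-box arm, 9 were above WTS-R in all 3 NTS-R libraries (6.84% over all genes), 9 had an unadjusted p under 0.05 (1.75%), and the median log2 difference was 1.35, beside 1.09 in TS-R against WTS-R. The log2 difference was positive for 13 members and negative for 1. Per1, a member of this arm, ran from -0.38 to -0.07 with 1 replicate left out of the 13-library fit. The Bmal1 arm of 6 genes had a median of -0.56 (-1.07 in TS-R), with 2 members, Arntl and Npas2, below in all libraries (5.83% over all genes). Cry1, a repressor placed in that arm, lay the other way, with a log2 difference of 0.87 (SE 0.35) and overlapping groups.

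Dbp was at 10.5, 3.84 and 3.59 CPM in the WTS-R libraries and 13.4, 89.0 and 52.8 CPM in NTS-R, and replicate 1 of NTS-R was nearest to WTS-R. Its log2 fold change was 3.17 (SE 0.76; DESeq2 adjusted p 0.0104). Per3, a repressor of the oscillator, was at 15.8, 10.1 and 11.5 CPM in the WTS-R libraries and 18.8, 49.9 and 44.2 CPM in NTS-R (log2 1.64, SE 0.53). Bhlhe41, a repressor that competes for E-boxes, was at 4.90 ± 1.01 CPM in the WTS-R libraries and 15.6 ± 7.91 CPM in NTS-R (SD, n = 3), a log2 fold change of 1.71 (SE 0.51). In the opposite arm Arntl was at 13.5, 16.5 and 18.9 CPM in the WTS-R libraries and 12.7, 0.828 and 2.39 CPM in NTS-R (log2 -1.66, SE 0.83). Npas2 was at 3.48, 4.80 and 7.44 CPM in the WTS-R libraries and 2.44, 0.483 and 0.703 CPM in NTS-R (log2 -2.12, SE 0.66). For each of these genes NTS-R replicates 2 and 3 were far from WTS-R and replicate 1 was close to it. Without NTS-R replicate 1 the 6-library fit called Dbp, Per3, Bhlhe41, Hlf and Ciart higher and Arntl and Npas2 lower (edgeR FDR between 0.0133 and 0.0474). This fit was added after the data were seen, so its calls are no separate evidence. The time of day of collection is not given in the sources used here, and its part in these values was not tested.

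E-box and D-box letters were looked for upstream of the clock genes, and 3 windows that hold them are shown. RefSeq promoter windows (build GRCm38.p6, from 250 bases before to 50 bases after the start) were found for 12 of the 14 members and searched on both strands. The E-box letters CACGTG were in the windows of 4 of the 12 (Bhlhe41, Ciart, Per1 and Tef), against 8.09% of all 27025 genes with a window. The D-box letters TTATGTAA were in 1 of the 12, Per3, against 1.11%. A match is a description of these letters and does not show binding. The 250 bases before the start of Bhlhe41, Ciart and Per3 follow, 5′ to 3′ on the strand of the gene, with the E-box (Bhlhe41, Ciart) or D-box (Per3) in capitals; no matches overlapped.
Bhlhe41, chr6:145865421-145865670, minus strand: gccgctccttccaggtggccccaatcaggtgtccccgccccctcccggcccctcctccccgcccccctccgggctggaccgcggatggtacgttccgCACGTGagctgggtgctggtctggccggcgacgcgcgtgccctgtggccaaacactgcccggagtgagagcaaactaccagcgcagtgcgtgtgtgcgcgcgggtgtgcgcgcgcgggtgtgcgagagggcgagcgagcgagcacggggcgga
Ciart, chr3:95882229-95882478, minus strand: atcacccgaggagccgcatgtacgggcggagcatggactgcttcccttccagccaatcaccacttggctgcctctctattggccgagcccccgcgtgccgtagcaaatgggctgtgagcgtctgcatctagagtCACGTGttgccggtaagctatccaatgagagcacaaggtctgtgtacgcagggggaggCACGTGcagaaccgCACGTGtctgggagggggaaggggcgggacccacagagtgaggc
Per3, chr4:151044666-151044915, minus strand: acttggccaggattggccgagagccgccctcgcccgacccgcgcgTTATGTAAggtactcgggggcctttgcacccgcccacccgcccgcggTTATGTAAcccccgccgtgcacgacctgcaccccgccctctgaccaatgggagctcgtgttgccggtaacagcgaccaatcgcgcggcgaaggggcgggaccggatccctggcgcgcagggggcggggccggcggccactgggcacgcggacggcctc
Bhlhe41 holds a single E-box that begins 153 bases before the start. Ciart, which encodes a repressor of the CLOCK and BMAL1 pair, holds 3, at 116, 58 and 44 bases, and Per3 holds 2 D-boxes, at 205 and 158 bases. Ciart was at 3.06, 3.16 and 1.95 CPM in the WTS-R libraries and 2.32, 20.9 and 13.7 CPM in NTS-R (log2 2.22, SE 0.94), with replicate 1 inside the WTS-R range. The windows of Dbp and Per3 held no CACGTG, which says only that these letters are not in those windows.

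**Figure D4:**
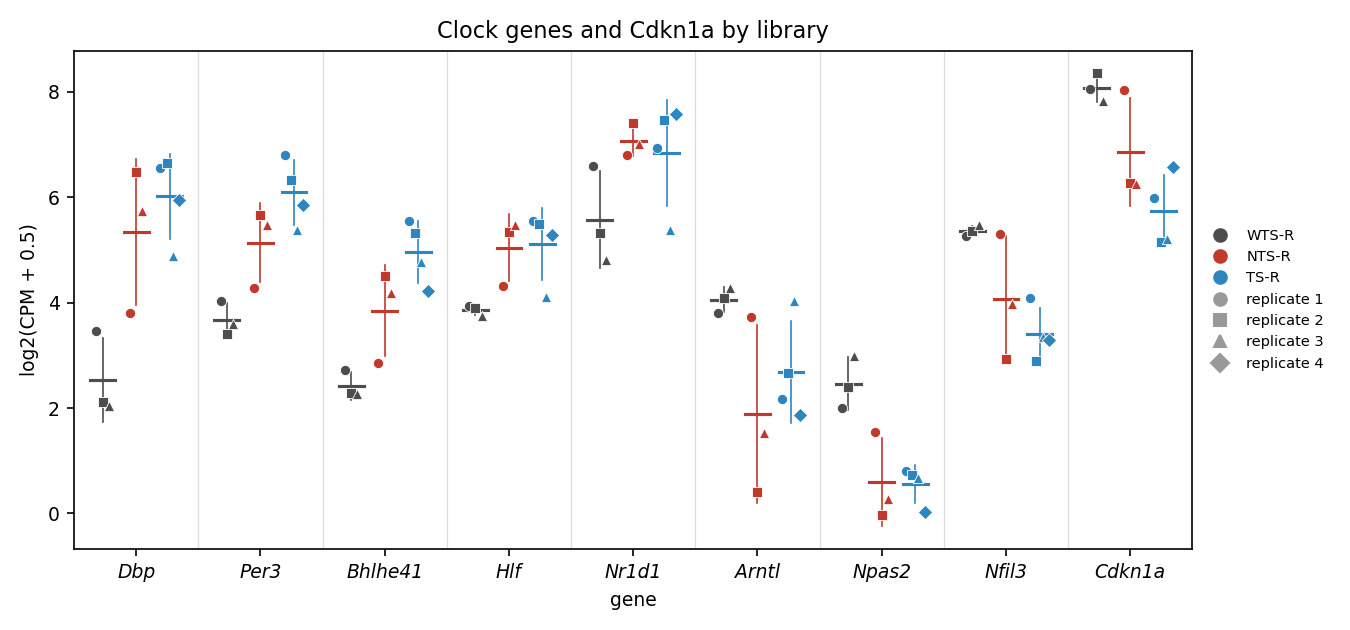
Level of 8 clock genes and Cdkn1a as log2(CPM + 0.5) per library, with groups, symbols, means and SD as in the plot of immune transcripts. NTS-R replicate 1 (red circle) lies near WTS-R for Dbp, Per3, Bhlhe41, Arntl, Nfil3 and Cdkn1a, and NTS-R replicates 2 and 3 lie away from WTS-R for these genes.

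Cdkn1a, the cell cycle inhibitor p21, split the NTS-R libraries as the clock genes did. Such a split was common, since NTS-R replicates 2 and 3, but not replicate 1, were below all of WTS-R for 2128 genes. In the NS-R libraries of the series Cdkn1a was at 125, 163 and 135 CPM and Arntl at 17.5, 12.9 and 3.13 CPM. NS-R replicate 1 thus had a WTS-R level of Arntl without one of Cdkn1a. NS-R replicates 1 and 2 also held airway transcripts, with Scgb1a1 at 2324 and 4629 CPM. The part of airway tissue in their Arntl and Cdkn1a levels was not tested. Cdkn1a levels were 264, 326 and 226 CPM in the WTS-R libraries, 263, 77.2 and 76.0 CPM in NTS-R and 63.3, 35.2, 36.3 and 95.4 CPM in TS-R. The NTS-R library with WTS-R-like clock gene levels had a WTS-R level of Cdkn1a, and the log2 difference of the groups was -1.01 (SE 0.48). Of 14 p53 target genes 2 were higher in all NTS-R libraries (6.84% over all genes), 0 had an unadjusted p under 0.05 (1.75% higher and 0.892% lower over all genes), and the median was 0.004.

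Chaperone genes of the heat shock response were higher in NTS-R. Of 14 tested members, 6 lay above WTS-R in all 3 libraries (6.84% over all genes), 1 had an unadjusted p under 0.05 in the 13-library fit (1.75%) and 8 in the 6-library fit (4.14%), and the median log2 difference was 0.45, beside -0.09 in TS-R. As means of log2(CPM + 0.5), list levels were 7.793, 7.979 and 8.228 in NTS-R and 6.96, 6.725, 7.218 and 8.134 in TS-R. TS-R replicate 4 thus lay inside the NTS-R range. Hsph1, a nucleotide exchange factor for Hsp70, was at 74.4, 79.3 and 53.5 CPM in the WTS-R libraries and 143, 180 and 321 CPM in NTS-R. The lowest NTS-R library was well above the highest WTS-R library, with a log2 fold change of 1.67 (SE 0.72). Hspa1b, an inducible Hsp70, was at 72.0, 36.4 and 35.7 CPM in the WTS-R libraries and 101, 163 and 210 CPM in NTS-R (log2 1.76, SE 1.19). Its near copy Hspa1a gave 1.64 (SE 1.19), and reads of the pair may be shared between them. Hspa8, the constitutive Hsp70, was at 1220 ± 64.4 CPM in the WTS-R libraries and 1548 ± 38.1 CPM in NTS-R (SD, n = 3), a log2 difference of 0.36 (SE 0.34). The mitochondrial chaperones Hspd1 and Hspe1 were at WTS-R levels (0.07, SE 0.26, and -0.07, SE 0.25).

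The glucocorticoid-responsive list had a median of -0.13 over 12 members, with 2 members above and 1 below WTS-R in all libraries (6.84% and 5.83% over all genes). Fkbp5, a chaperone of the glucocorticoid receptor that glucocorticoids induce, was at 37.4, 39.3 and 13.4 CPM in the WTS-R libraries and 108, 55.2 and 67.5 CPM in NTS-R, a log2 fold change of 1.34 (SE 0.34) that passed with DESeq2 on the 6 libraries alone. Tsc22d3 (GILZ), another induced gene, was at 103, 81.7 and 96.3 CPM in the WTS-R libraries and 172, 131 and 114 CPM in NTS-R (log2 0.58, SE 0.28). In both genes NTS-R replicate 1 was the highest library. Sgk1, which glucocorticoids also induce, was lower in all 3 NTS-R libraries (log2 -0.51, SE 0.38).

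Thermogenic and oxidative genes of the fat lay slightly lower in NTS-R, and general adipocyte genes did not differ. Ucp1 was at 2206, 3921 and 2239 CPM in the WTS-R libraries and 1545, 1521 and 1819 CPM in NTS-R. The groups did not overlap, and the log2 difference was -0.76 (SE 0.50); TS-R libraries had 1179, 1394, 366 and 1918 CPM. Of 19 brown thermogenic genes 5 were below WTS-R in all libraries (5.83% over all genes), 0 had an unadjusted p under 0.05, and the median was -0.25, or 0.05 without WTS-R replicate 2. Of 20 nuclear genes of the respiratory chain, 20 had a negative difference with a median of -0.33, and 10 were below in all libraries; 0 had an unadjusted p under 0.05, and 2 had one in the 6-library fit (2.59%). Uqcrc1, a subunit of complex III, was at 1342, 1149 and 1355 CPM in the WTS-R libraries and 1042, 1011 and 672 CPM in NTS-R (log2 -0.48, SE 0.44). Of 18 fatty acid oxidation genes 5 were below in all libraries (5.83% over all genes), with a median of -0.17.

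NTS-R replicate 3 had both the lowest mean level of respiratory chain genes and the highest share of mitochondrially encoded counts (33.4%) of the 6 libraries. The part of that share in the CPM values was not tested. Adipoq, the adiponectin gene, was at 1573, 1498 and 1708 CPM in the WTS-R libraries and 1813, 1439 and 1093 CPM in NTS-R (log2 -0.13, SE 0.38). The adipocyte identity and lipolysis list had a median of 0.01 over 18 genes, while its median in TS-R was -0.57. Of the 18 genes, 0 lay outside the WTS-R range in all libraries (6.84% above and 5.83% below over all genes).

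Among transcription factors of adipocytes, Cebpb and Prdm16 differed in opposite directions, while the list as a whole had a median of -0.05. Of its 17 tested members, 1 was above and 3 were below WTS-R in all libraries (6.84% and 5.83% over all genes). The number above was near the share over all genes. At an unadjusted p under 0.05, 0 were higher (1.75%) and 1 was lower (0.892%). Cebpb, an early factor of adipogenesis, was at 176, 215 and 159 CPM in the WTS-R libraries and 117, 100 and 62.0 CPM in NTS-R (log2 -0.98, SE 0.44), and TS-R had 67.0, 71.4, 35.2 and 156 CPM. Prdm16, a determinant of brown fat fate, was at 20.9, 16.6 and 9.77 CPM in the WTS-R libraries and 20.93, 21.3 and 36.5 CPM in NTS-R, separated by a narrow margin (log2 0.77, SE 0.39). Ebf2, its partner in commitment, gave 0.59 (SE 0.36), and Pparg, the master regulator of fat cells, 0.20 (SE 0.39), both with overlap.

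**Figure D5:**
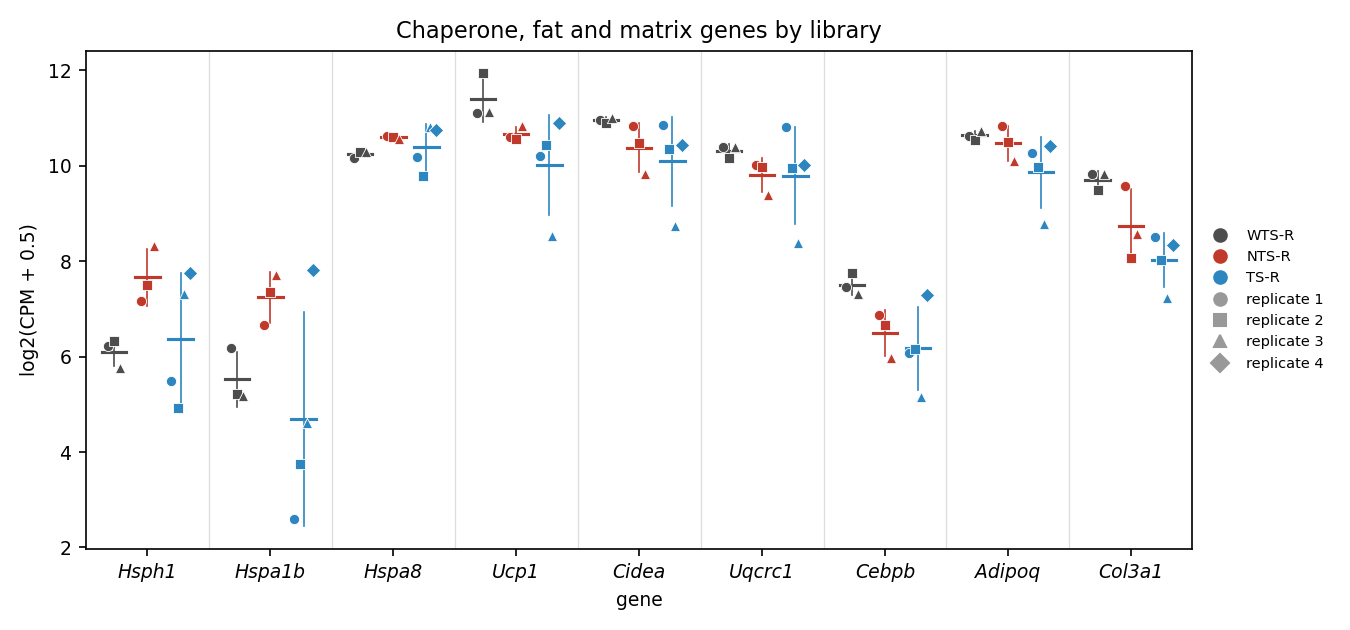
Level of 9 chaperone, fat and matrix genes as log2(CPM + 0.5) per library, with groups, symbols, means and SD as in the plot of immune transcripts. NTS-R lies above WTS-R for Hsph1, Hspa1b and Hspa8, below it for Ucp1, Cidea, Uqcrc1 and Cebpb, and overlaps with it for Adipoq and Col3a1, where NTS-R replicate 1 is near WTS-R.

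Collagen genes were lower in 2 of the 3 NTS-R libraries. Col3a1, a fibrillar collagen, had 902, 722 and 906 CPM in the WTS-R libraries and 768, 270 and 382 CPM in NTS-R. NTS-R replicate 1 lay inside the WTS-R range, and the other NTS-R libraries lay with TS-R (362, 261, 149 and 322 CPM). Of 17 collagen genes, 16 had a negative difference with a median of -0.47, 3 were below in all libraries (5.83% over all genes), and 0 had an unadjusted p under 0.05 in the 13-library fit, against 6 in the 6-library fit (2.59%). The median in TS-R was -0.93. Col5a3 gave -0.82 (SE 0.46) and Col6a2 -0.59 (SE 0.29), both without overlap, and Col1a1 -0.83 (SE 0.50). Without NTS-R replicate 1 Col1a1 was called lower in the 6-library fit, with a log2 difference of -1.59 (edgeR FDR 0.0395). That fit, too, was added after the data were seen.

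Smooth muscle genes had a slightly positive median difference and mesothelial genes a negative one, but the mean list levels of the groups overlapped. For smooth muscle, WTS-R replicate 3 (4.851) was above NTS-R replicates 1 and 3 (4.673 and 4.543). For the mesothelial and epithelial list, NTS-R replicate 1 (2.85) lay inside the WTS-R range (2.644 to 3.237). These levels are means of log2(CPM + 0.5). Of 14 vascular smooth muscle genes, 13 had a positive difference with a median of 0.28, and 2 were above in all libraries (6.84% over all genes). These were Mylk, the myosin light chain kinase (34.1, 38.2 and 35.4 CPM in the WTS-R libraries, 45.4, 41.8 and 47.1 CPM in NTS-R; log2 0.34, SE 0.18), and the actin-bundling gene Synpo2 (0.72, SE 0.39). Acta2 gave 0.22 (SE 0.36) and the endothelial gene Pecam1 0.12 (SE 0.20). The mesothelial and epithelial list had a median of -0.86 over 11 tested genes (12 in the list), with 1 below in all libraries (5.83% over all genes), the keratin Krt19 at 24.1, 11.4 and 14.4 CPM in the WTS-R libraries and 11.2, 3.31 and 3.80 CPM in NTS-R (log2 -1.46, SE 0.96).

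Muscle transcripts varied between libraries more than between groups. Myh4, a fast skeletal myosin, was at 0, 0.113 and 12.04 CPM in the WTS-R libraries and 137, 100.1 and 3.10 CPM in NTS-R. The 13 tested skeletal muscle genes (14 in the list) had a median of 1.54. Of these, 0 lay outside the WTS-R range in all libraries (6.84% above and 5.83% below over all genes). WTS-R replicates 1 and 2 were nearly free of these transcripts and WTS-R replicate 3 was not. Without WTS-R replicate 3 the median was 8.15, and the 6-library fit then called 72 genes higher, many of them striated muscle genes such as Ttn, Actn2 and Ckmt2, and 3 lower. Of 12 cardiac genes, 12 had a positive difference with a median of 0.92, and 2 had an unadjusted p under 0.05 (1.75%). Ryr2, the calcium release channel of heart muscle, was at 8.05, 8.92 and 11.7 CPM in the WTS-R libraries and 21.5, 13.2 and 55.0 CPM in NTS-R (log2 1.70, SE 0.57). NTS-R replicate 3 was the highest library for Ryr2 and for phospholamban, Pln (75.3 CPM). How much tissue beside fat each sample held is not given in the sources used here.

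Interferon-stimulated genes were high in 1 library of each group. Isg15, an antiviral modifier, was at 210, 10.9 and 28.4 CPM in the WTS-R libraries and 97.0, 9.94 and 4.22 CPM in NTS-R. WTS-R replicate 1 and NTS-R replicate 1 were high and the other 4 libraries low. The list of 20 genes had a median of -0.55 with 0 outside the WTS-R range in all libraries (6.84% above and 5.83% below over all genes). Leaving out WTS-R replicate 1 moved it to 1.12 and leaving out NTS-R replicate 1 to -2.445, so its sign rests on 1 library, and the log2 difference of Isg15 was -1.23 (SE 1.04). Without WTS-R replicate 1 it was 0.87.

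Several genes outside the lists were among those with the smallest p-values. Fam222a, whose function is little known, had the smallest in the 13-library edgeR fit and was at 6.13, 9.43 and 7.18 CPM in the WTS-R libraries and 1.97, 1.52 and 0.774 CPM in NTS-R (log2 -2.41, SE 0.42). It passed with DESeq2 on 13 libraries (adjusted p 6.09e-05) and with voomWithQualityWeights (adjusted p 0.0462) but not in either edgeR fit (FDR 0.995 and 0.113). Its TS-R levels of 2.42, 2.37, 1.74 and 3.92 CPM were also below WTS-R. Ripk4, a kinase of epithelial differentiation, was at 1.20, 1.19 and 0.630 CPM in the WTS-R libraries and 3.19, 8.90 and 4.22 CPM in NTS-R (log2 2.45, SE 0.54; DESeq2 adjusted p 0.0157). Zfp366, a zinc finger corepressor, was at 19.3, 22.9 and 18.3 CPM in the WTS-R libraries and 40.6, 38.3 and 67.2 CPM in NTS-R (log2 1.30, SE 0.31), and its TS-R levels of 17.1, 25.9, 17.8 and 24.9 CPM were near WTS-R. The mitochondrial cysteinyl-tRNA synthetase gene Cars2 gave -1.32 (SE 0.30). Zfp366 did not overlap between the groups and passed with DESeq2 on the 6 libraries (adjusted p 0.000982) but not in either edgeR fit.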

How the data were processed

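Bulk RNA was sequenced from PVAT, and the deposited table holds the authors' raw read counts per gene for 13 libraries. HISAT2 and featureCounts are named in the submitters' processing notes; the sources used here do not give their versions, the genome build, the annotation or the use of strand. Groups were taken from the sample titles. The main test was edgeR 4.0.16 (R 4.3.3): TMM scaling, filterByExpr, a quasi-likelihood fit over all 13 libraries, and Benjamini-Hochberg adjustment over all genes tested, with a threshold of 0.05. Alternatives used the 6 libraries alone, DESeq2 1.42.0, limma 3.58.1 (voomWithQualityWeights), RLE scaling, no filter, a replicate block and each replicate left out. The fits of the 6 libraries with a replicate left out, with DESeq2 and with voomWithQualityWeights were added after the data were seen. CPM are counts scaled to the library total. Genes outside the lists were named by the smallest p, up to 12 in each direction with a mean of at least 1 CPM; some of these are printed and the others are not reported here. The members and lists were chosen with earlier results of these data known. The fitting code was tested on simulated data. Intervals and floors cover counting error only.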

Additional observations from a re-analysis of the deposited data

Results flagged for a closer look

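Among the 23 genes checked for single libraries far from their group, 2 TS-R values stood apart, and chance alone gives about 1 in 20 groups. Igkc was at 20660 CPM in TS-R replicate 3, where the nearest TS-R library had 2301 CPM. Myh4 was at 3227 CPM in TS-R replicate 1, where the nearest had 71.4 CPM. Neither library enters the difference between NTS-R and WTS-R, but both enter the spread of the 13-library fit.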

How the results depend on the processing

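The count of genes past an FDR of 0.05 depended on the libraries and the tool. The 13-library edgeR fit gave 0 higher and 0 lower, as it did with RLE scaling, with no filter, with a replicate block and with each replicate left out. The 6 libraries alone gave 3 higher, DESeq2 11 higher and 2 lower, and voomWithQualityWeights 2 lower. On the 6 libraries DESeq2 gave 82 higher and 32 lower, voomWithQualityWeights 18 and 2, and the fit with a replicate block 11 and 1. Deviations of same-numbered samples from their group means had correlations of 0.231, 0.00317 and -0.258. Those of differently numbered samples ran from -0.319 to 0.327. With 3 libraries in each group these values cannot show whether the numbers pair the samples. Leaving out 1 replicate from the 6 gave 1 to 72 genes higher and 0 to 7 lower; 72 and 3 came without WTS-R replicate 3, and 55 and 7 without NTS-R replicate 1. Log2 differences of some named genes changed sign, all of them in genes that passed no test. With 1 replicate left out of the 13 libraries, they ran from -0.1854 to 0.7198 for Nlrp3, -0.07565 to 0.4719 for Il1b, -0.1513 to 0.9735 for Cd79a, -0.7029 to 0.1148 for Fos, -3.48 to 0.8689 for Isg15, -0.01749 to 0.1554 for Hspd1, -0.1708 to 0.01629 for Hspe1, -0.02331 to 0.2757 for Sdc1 and -0.04722 to 0.4713 for Xbp1. In the 6 libraries the reversed values were -0.1441 for Cd79a without NTS-R replicate 1, 0.1169 for Fos and 0.01923 for Hspe1 without WTS-R replicate 3, 0.02633 for Hspe1 without NTS-R replicate 2, -0.02679 for Xbp1 without WTS-R replicate 2, 0.02644 for Adipoq without NTS-R replicate 3 and 0.9408 for Isg15 without WTS-R replicate 1. With voomWithQualityWeights Fos gave 0.1532, and on the 6 libraries Fos gave 0.2154, Egr1 0.02988 and Hspe1 0.01072. The cause was not tested. Genes near the 3-count floor, Nlrp3 among them, are limited by depth.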
